A study of Mus musculus with 15 samples.

Results

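The regions described here are stretches of the mouse genome where 5-hydroxymethylcytosine (5hmC) and acetylated histone H3 lysine 27 (H3K27ac) were listed at the same place. They were chosen by position alone, as every region of the authors' 5hmC table on chromosomes 1 to 19 that shares at least 1 bp with a region of their H3K27ac table. This gave 1050 of the 11698 5hmC regions on those chromosomes (8.98%, exact 95% interval 8.46% to 9.51%), out of 11748 regions in the whole table. The H3K27ac regions they fall in, called hosts below, numbered 1125 of 49298 on the same chromosomes (2.28%). All positions are in the mm9 build.

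Tissue was the nucleus accumbens, a ventral part of the striatum that belongs to the brain's reward circuit, from C57BL/6 mice. One group received cocaine at 20 mg/kg by intraperitoneal injection once a day for 7 days, and the other received saline in the same way, going by the source labels; the treatment text repeats the cocaine wording for the saline samples. Each mark was sequenced in 3 cocaine and 3 saline libraries, and the libraries of one mark are not those of the other. An input library stood beside the H3K27ac libraries of each treatment. Nothing in the labels ties a library to an animal of its own, so a p-value here reflects variation between libraries that could be technical.

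Cytosine in DNA is methylated mostly at CpG sites, and Tet enzymes oxidise 5-methylcytosine to 5hmC, which is abundant in neurons. H3K27ac is laid down by the acetyltransferases p300 and CBP and marks active enhancers and promoters. Neuronal 5hmC is known to be common in gene bodies and around enhancers, and both marks can therefore occur on one stretch of chromatin. Both tables hold regions that the authors' caller had listed for a difference between cocaine and saline in these same libraries. They do not show all 5hmC or all H3K27ac of the tissue. Tissue was sequenced in bulk, so fewer cells of a type and less signal per cell cannot be told apart.

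The 5hmC of the 1050 regions was described without a test, because the list had been selected for this difference. The 5hmC table has no header that names its libraries, so its treatment and control columns were read as cocaine and saline by analogy with the header of the H3K27ac table. Every direction of 5hmC below, and every comparison of that direction with H3K27ac, rests on this reading. Cocaine libraries had the larger mean in 618 of the regions and the smaller mean in 432. The share that was higher, 58.9%, lay beside 58.4% of the 10648 listed 5hmC regions outside H3K27ac. In the 618 higher regions the median normalised count per region was 10.6, 11.1 and 10.8 in the 3 cocaine libraries and 2.69, 3.09 and 2.96 in the saline libraries. In the 432 lower regions it was 2.88, 2.47 and 2.70 after cocaine and 9.86, 10.3 and 9.87 after saline. All libraries of a group lay together, and the 2 directions were near mirror images in size. Cocaine and saline values did not overlap in 1047 of the 1050 regions, where 99.9% of all listed 5hmC regions did not overlap, so nothing is read from this count.

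**Figure D1:**
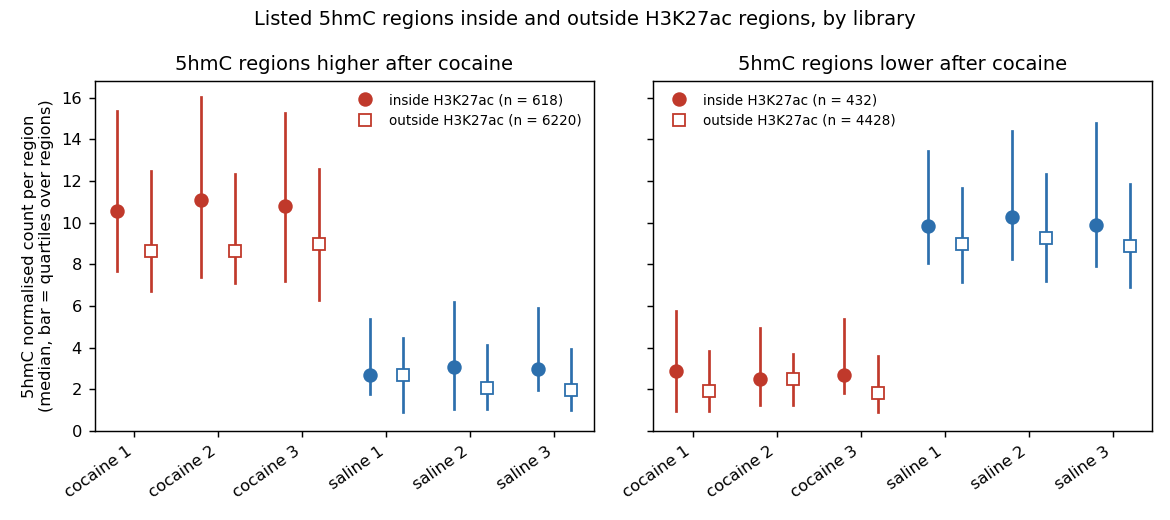
Median 5hmC normalised count per region (y axis) in each library (x axis), for regions higher (left) and lower (right) after cocaine. Filled circles are regions inside H3K27ac, open squares are those outside, and bars span the quartiles over regions; inside medians lie above outside medians in all but 2 of the 12 pairs of symbols, where they are level.

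Inside H3K27ac the 5hmC counts were larger and the folds smaller than over all listed regions outside, most of which lie more than 10000 bp from H3K27ac. The median count over all libraries was 6.77 per region inside and 5.54 outside, with a median length of 200 bp in both. Outside regions close to H3K27ac did not share the lower value, with medians of 6.24, 6.46 and 6.57 in the bins up to 250, 500 and 1000 bp from an edge. Summed per kb, the inside regions had 37.98, 39.77 and 38.37 counts in the cocaine libraries against 31.28, 32.49 and 31.15 outside. The saline libraries had 31.67, 32.93 and 32.62 counts per kb inside against 27.01, 26.31 and 26.22 outside. The inside value was therefore the larger one in all 6 libraries, by 1.17 to 1.251 times. The authors' deposited log2 fold change had a median of 1.79 for the higher regions inside and 2.03 outside, and of -1.87 for the lower regions inside and -2.11 outside. The group with more 5hmC had a mean of at least 10 counts in 54.3% of the inside regions and 39.4% of the outside regions. Regions inside H3K27ac held 10.4% to 11.01% of all counts in listed autosomal 5hmC regions, library by library.

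Counts behind a single region were low. The normalised counts of each library stood at whole multiples of a step, and a step was taken as a read. On that reading, a region inside H3K27ac held a median of 6 to 8 reads per library. In the authors' deposited table the lowest adjusted p among the 1050 regions was 0.0578, 0 of them were below 0.05, beside 0.034% of all listed regions, and 1 was below 0.1, beside 0.0596%. All 1050 had an unadjusted p in that table of at most 0.00104. No single region is therefore called changed in 5hmC here, and the direction of a region is only the sign of its deposited difference. In 99.9% of all listed 5hmC regions the groups did not overlap, so nothing is read from such separation in a region named below.

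The region with that lowest adjusted p was chr5:111865741-111866140. Its 5hmC counts were 0.96, 2.47 and 7.19 after cocaine and 17.9, 14.4 and 18.8 after saline. The group means were 3.54 ± 3.25 after cocaine and 17.0 ± 2.31 after saline (SD, n = 3 each). Its midpoint lay 40.5 bp beyond the end of the host at chr5:111864701-111865900, whose limma log2 fold change was 0.06 (adjusted p = 0.342). Among regions higher after cocaine, chr1:95261681-95262040 had 14.4, 11.1 and 13.5 counts after cocaine and 4.48, 1.03 and 4.93 after saline. Its host, chr1:95261601-95263300, had 602, 590 and 584 H3K27ac counts after cocaine and 527, 547 and 561 after saline. The H3K27ac groups did not overlap, but the limma adjusted p of 0.0527 missed the threshold of 0.05.

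The largest 5hmC counts belonged to regions with modest folds. At chr10:80616241-80616460 the counts were 42.3, 37.0 and 37.7 after cocaine and 16.1, 22.7 and 28.6 after saline. At chr11:97397841-97398060 they were 38.4, 33.3 and 38.6 against 17.0, 20.6 and 25.7. At chr2:178365441-178365740 they were 28.8, 39.5 and 38.6 against 22.4, 17.5 and 20.7. All 3 were higher after cocaine, and their deposited log2 fold changes were 0.80, 0.80 and 0.82. The first of them sat 49.5 bp inside the edge of its host, whose H3K27ac fell by 0.15 on the log2 scale (SE 0.04, adjusted p = 0.0058). That call was lost without the cocaine H3K27ac replicate 1. The other hosts of these regions were not called, with adjusted p of 0.678 and 0.727.

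Within the host, 5hmC regions were spread almost evenly from centre to edge, and here the inner zone means the places nearer to the centre than to the edge. There were 1135 overlapping pairs, since 970 of the 5hmC regions had 1 host, 75 had 2 and the rest had 3, where H3K27ac regions overlap each other. The 5hmC region lay fully inside the host in 844 pairs (74.4%) and crossed an edge in 291. Its midpoint was inside the host or exactly on its edge in 1016 pairs. These were 245, 234, 267 and 270 in 4 zones of equal width from centre to edge. The inner zone, the first pair of these, thus held 47.2% of the midpoints, where an even spread would put as many in as out of it. Midpoints exactly on the edge were counted in the last zone, which lowers this share. The median midpoint was 370 bp from the centre and 339.5 bp from the nearest edge. The inner zone held 48.8% of the midpoints of 5hmC regions higher after cocaine and 44.7% of those lower after cocaine. In hosts of 2000 bp or more it held 42.8%.

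Some regions marked the extremes of this range. The 5hmC region chr2:150695601-150695800 had its midpoint exactly at the centre of the host chr2:150694701-150696700, and its counts were 1.92, 1.23 and 0.90 after cocaine and 8.07, 7.21 and 4.93 after saline. Those of chr5:23960561-23960760 and chr15:82759821-82760100 were 10 bp from the centres of hosts of 3100 and 2500 bp. At the other end, 18 regions shared only 20 bp with a host, the smallest overlap seen. Just outside the rule, 9 listed 5hmC regions lay within 20 bp of an H3K27ac region, and chr1:39361801-39362040 touched one without sharing a base, with 4.80, 6.17 and 6.29 counts after cocaine and 0.90, 0 and 0.99 after saline.

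Away from the edge itself, the density of listed 5hmC regions was similar inside listed H3K27ac regions and up to 1000 bp outside. H3K27ac regions that overlapped or adjoined were joined for this purpose into 40039 blocks covering 67.9 Mb, a choice made after the data were seen. Inside the blocks there were 932 midpoints, or 13.7 per Mb, against 4.61 per Mb over the rest of the autosomes. Midpoints exactly on an edge were counted as outside here, but as inside in the host counts above. Counting them as inside would raise the density just inside the edge and lower it just outside. Density inside was 14.99 per Mb in the outermost 100 bp, 12.6 at 100 to 250 bp, 15.1 at 250 to 500 bp and 12.8 more than 1000 bp from an edge. Outside it was 12.5 per Mb in the first 250 bp, 12.7 between 250 and 500 bp and 13.05 between 500 and 1000 bp. It was 10.98 per Mb at 1000 to 2000 bp, 8.19 at 5000 to 10000 bp and 2.19 beyond 50000 bp. A flank of at least 1000 bp on each side thus carried listed 5hmC at about the density of the listed block itself. The edge is that of regions listed for a difference, in windows of 1000 bp moved by 100 bp. It need not be where acetylation ends, and H3K27ac in the flanks was not examined.

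**Figure D2:**
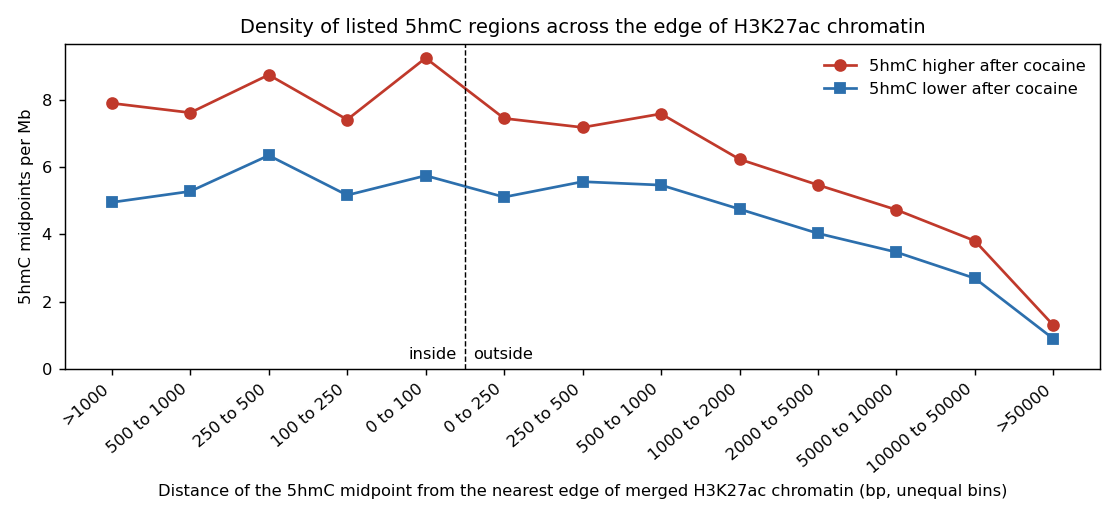
Listed 5hmC midpoints per Mb (y axis) by distance in bp from the nearest edge of merged listed H3K27ac regions (x axis, unequal bins), for regions higher (circles) and lower (squares) after cocaine. The dashed line is the edge, and midpoints exactly on it count as outside. Both curves are roughly flat from inside to 1000 bp outside and then fall.

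Gains and losses followed the same profile. Regions higher after cocaine made up 56.3% to 61.7% of the midpoints in each of the 13 distance bins. The median 5hmC level was 6.18 to 7.33 counts per region in the bins inside and 6.19 to 6.57 in the bins out to 2000 bp outside, which overlap, and 5.00 beyond 50000 bp. Chromosomes differed in the share of their 5hmC regions that lay in H3K27ac, from 5.79% of 501 on chromosome 13 to 13.4% of 491 on chromosome 12. Per Mb of listed H3K27ac the same 2 chromosomes had 11.5 and 16.8 such regions.

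Hosts were longer than other H3K27ac regions. Their median length was 1400 bp against 1200 bp, and 25.7% of them were 2000 bp or more against 16.1%. The share of H3K27ac regions that held a 5hmC region was 1.76% among those of 1000 bp and 6.40% among those of 3100 bp or more. Per Mb of H3K27ac region there was no such gradient, with 15.1 midpoints in regions of 1000 bp, 11.2 in those of 2100 to 3000 bp and 16.4 in the longest class. The longest host, chr7:139997201-140005500 with 8300 bp, held the 5hmC region chr7:139999921-140000120 at 2820 bp from its nearest edge. That region had 3.84, 2.47 and 1.80 counts after cocaine and 7.17, 13.4 and 9.87 after saline.

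The H3K27ac level of hosts was close to that of other regions over all lengths and in the shorter classes, and lower among regions of 1300 bp or more. The median normalised count per kb was 376.7 in hosts and 372.9 in the others. Among regions of 1000 bp the ratio of hosts to others was 1.003, and among those of 1100 to 1200 bp it was 1.02 (1.01 to 1.02 by library). In the 4 longer classes it was 0.951, 0.909, 0.954 and 0.929. Hosts of 1300 bp or more were below other regions of their length in all 6 libraries, with ratios between 0.901 and 0.963. The deposited ratios to input, over all lengths and so not matched, had medians of 3.81 and 3.88 for cocaine and saline in hosts against 4.0 and 4.02 in other regions.

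**Figure D3:**
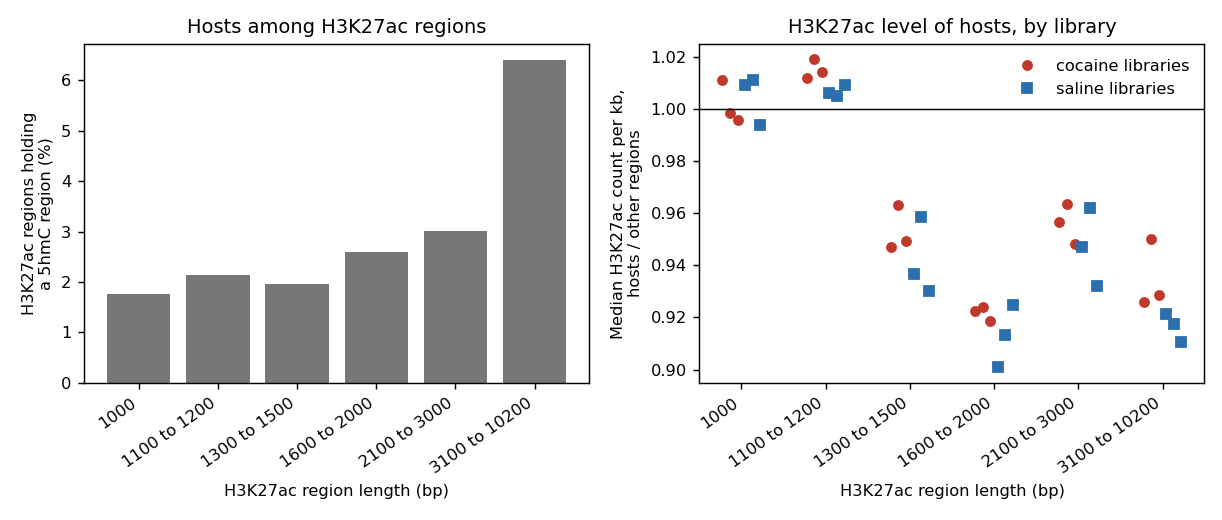
Left, percent of H3K27ac regions that hold a listed 5hmC region (y axis) by region length in bp (x axis). Right, median H3K27ac count per kb of hosts divided by that of other regions of the same length class, 1 point per library; points for lengths of 1300 bp and more lie below 1 in all 6 libraries.

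Listed 5hmC was thinnest in the strongest H3K27ac. When all H3K27ac regions were ranked by count per kb, the 6 lower deciles held 13.2 to 17.2 midpoints per Mb. The 2 upper deciles held 11.1 and 10.97 per Mb. Even so, 110 hosts lay in the top decile, which ran from 608 to 1388 counts per kb. The strongest host, chr7:30099401-30100400, reached 1143 counts per kb, below the top of that range. It had 1169, 1127 and 1093 H3K27ac counts after cocaine and 1170, 1114 and 1187 after saline, all in 1000 bp. Its groups overlapped and its limma log2 fold change was -0.03 (adjusted p = 0.557). The 5hmC region within it, chr7:30099961-30100160, had 9.61, 12.3 and 7.19 counts after cocaine and 1.79, 3.09 and 0.99 after saline, higher in every cocaine library.

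The share of 5hmC that was higher after cocaine is given here by the length of the host. In hosts of 1000 bp, 202 of 306 pairs (66.0%, exact 95% interval 60.4% to 71.3%) had 5hmC that was higher after cocaine. The share was 59.4% in hosts of 1100 to 1400 bp, 55.9% in those of 1500 to 2000 bp and 53.7% (47.4% to 59.9%) in those of 2100 bp or more. The intervals cover counting error only, and regions measured in the same libraries are not replicates, so no test was made. Among regions whose higher group mean was at least 10 counts, the shares in the shortest and the longest hosts were 62.8% (55.1% to 70.0%) and 54.8% (46.0% to 63.4%), with intervals that overlap. By host level the share was 58.1%, 58.0%, 58.7% and 61.3% from the lowest to the highest quartile. The level of 5hmC itself varied little with the host, with medians of 7.00, 7.27, 6.99 and 6.62 counts per region from the shortest to the longest hosts.

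H3K27ac at the hosts was compared between 3 cocaine and 3 saline libraries with limma on log2(normalised count + 1), fitted over all 49712 regions. All of these had been listed for a difference in the same libraries. An adjusted p below 0.05 therefore does not hold false calls to that rate, and is used here and below to rank and sort regions. Of the 1125 hosts, 37 rose (3.29%) and 69 fell (6.13%) at an adjusted p below 0.05, beside 3.42% and 9.62% of all H3K27ac regions. In all, 106 hosts passed (9.42%) where 13.0% of all regions did, and 293 hosts (26.0%) had groups that did not overlap where 29.1% of all regions had. The median log2 fold change was 0.02 in hosts and -0.02 in all regions, with quartiles of -0.05 and 0.06 in hosts. The balance depended on scaling: with cyclic loess 108 hosts rose and 69 fell, beside 2735 and 4714 of all regions, and with median size factors 62 rose and 63 fell, beside 2378 and 4555. Left to each region's own variance, 0 hosts and 2 of all regions passed. In that fit 185 of the 1125 hosts had an unadjusted p below 0.05, beside 8528 of all 49712 regions. The number of hosts passing was 45 without cocaine replicate 1 and 48 without cocaine replicate 2. In the first of these fits 16 hosts rose and 29 fell, beside 628 and 2454 of all regions. In the second 16 rose and 32 fell, beside 624 and 2431.

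H3K27ac differences at hosts of higher and of lower 5hmC lay over each other. Of the 664 hosts that held only 5hmC higher after cocaine, 18 rose (2.71%) and 41 fell (6.18%) in H3K27ac. Of the 458 hosts that held only 5hmC lower after cocaine, 19 rose (4.15%) and 28 fell (6.11%). Among the other H3K27ac regions 3.44% rose and 9.63% fell. The median H3K27ac log2 fold change was 0.0137 and 0.0185 in these sets, against -0.0183 in other H3K27ac regions, where cyclic loess gave 0.00278. The quartiles of the first set were -0.05 and 0.05, and those of the second -0.05 and 0.06. By library, the median deviation from the region mean at hosts of higher 5hmC was 0.002, -0.001 and -0.002 after cocaine and -0.0004, -0.010 and 0.008 after saline, on the log2 scale. The saline libraries spanned the cocaine ones. Saline replicate 3 was the highest library in every set with one direction of 5hmC and in the other H3K27ac regions, where its median deviation was 0.018.

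Hosts that rose in H3K27ac held 5hmC of either direction. The rises and falls named from here on were picked by fold change among called hosts. Separation of their H3K27ac groups follows largely from that choice and is not further evidence. The host with the largest rise was chr5:132365701-132368500, with 644, 588 and 611 H3K27ac counts after cocaine and 543, 506 and 493 after saline (log2 fold change 0.26, SE 0.04, adjusted p = 7.8e-07). Its 5hmC region, chr5:132367381-132367660, had 13.5, 9.88 and 16.2 counts after cocaine and 6.28, 2.06 and 2.96 after saline. Here both marks were higher in every cocaine library. The host chr4:139134801-139135900 had 285, 278 and 259 H3K27ac counts after cocaine and 231, 234 and 233 after saline (log2 fold change 0.23, SE 0.06, adjusted p = 0.00164). Its 5hmC region, chr4:139135041-139135240, had 6.73, 9.88 and 8.09 counts after cocaine and 18.8, 20.6 and 15.8 after saline. The marks there lay in opposite directions, and the H3K27ac groups did not overlap.

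The next hosts by size of rise were smaller. H3K27ac at chr13:45840501-45841500 was 270, 298 and 273 after cocaine and 240, 234 and 244 after saline (adjusted p = 0.00198), and its call was lost without cocaine replicate 2. The 5hmC region in it, chr13:45840741-45840960, had 4.80, 4.94 and 4.49 counts after cocaine and 1.79, 0 and 0 after saline. At chr7:143371701-143372800 H3K27ac was 309, 301 and 306 after cocaine and 282, 250 and 256 after saline (adjusted p = 0.00214). The 5hmC region there, chr7:143372361-143372580, went the other way, with 1.92, 0 and 0.90 counts after cocaine and 8.07, 6.18 and 9.87 after saline. At chr11:7037101-7038200 H3K27ac was 296, 273 and 287 after cocaine and 226, 248 and 266 after saline (adjusted p = 0.00374), a call lost without cocaine replicate 1 and without saline replicate 1. Its 5hmC was higher in every cocaine library, with 7.69, 6.17 and 4.49 counts against 0.90, 2.06 and 0.99.

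Hosts that fell in H3K27ac also held 5hmC of either direction. Their pairs had 41 regions of higher and 28 of lower 5hmC, against 18 and 19 where the host rose. Over all pairs there were 670 and 465. The largest fall was at chr13:46908901-46909900, also the host with the lowest H3K27ac per kb, with 161, 142 and 160 counts after cocaine and 200, 207 and 187 after saline (log2 fold change -0.35, SE 0.07, adjusted p = 1.35e-05). Its 5hmC region, chr13:46908821-46909020, had 16.3, 14.8 and 10.8 counts after cocaine and 5.38, 4.12 and 5.92 after saline. H3K27ac was lower and 5hmC higher in each cocaine library. At chr7:150623001-150624400 H3K27ac was 272, 287 and 290 after cocaine and 350, 332 and 380 after saline (log2 fold change -0.32, SE 0.05, adjusted p = 3.02e-07). Its 5hmC region, chr7:150623021-150623220, was lower too, with 2.88, 1.23 and 2.70 counts after cocaine and 9.86, 5.15 and 18.8 after saline. The H3K27ac groups did not overlap, and saline 5hmC was the more scattered.

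The remaining falls of this group also had H3K27ac groups that did not overlap, from which nothing is read. At chr17:69730901-69732800 H3K27ac was 657, 672 and 685 after cocaine and 809, 739 and 837 after saline (adjusted p = 8.73e-07), with 5hmC of 1.92, 2.47 and 0.90 against 6.28, 8.24 and 8.88 at chr17:69730721-69730920. At chr16:43978501-43981000 H3K27ac was 856, 852 and 907 after cocaine and 1007, 953 and 1095 after saline (adjusted p = 2.24e-06), with 5hmC of 2.88, 2.47 and 2.70 against 8.96, 10.3 and 9.87 at chr16:43980921-43981160. At chr5:30434201-30435200 H3K27ac was 366, 328 and 341 after cocaine and 373, 417 and 413 after saline (adjusted p = 0.000609), with 5hmC of 12.5, 9.88 and 20.7 against 5.38, 5.15 and 3.95 at chr5:30433961-30434220. The first pair of these hosts had less 5hmC after cocaine and the last had more. In these 3 cases the 5hmC midpoint lay outside the host, by 80.5, 40.5 and 110.5 bp.

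**Figure D4:**
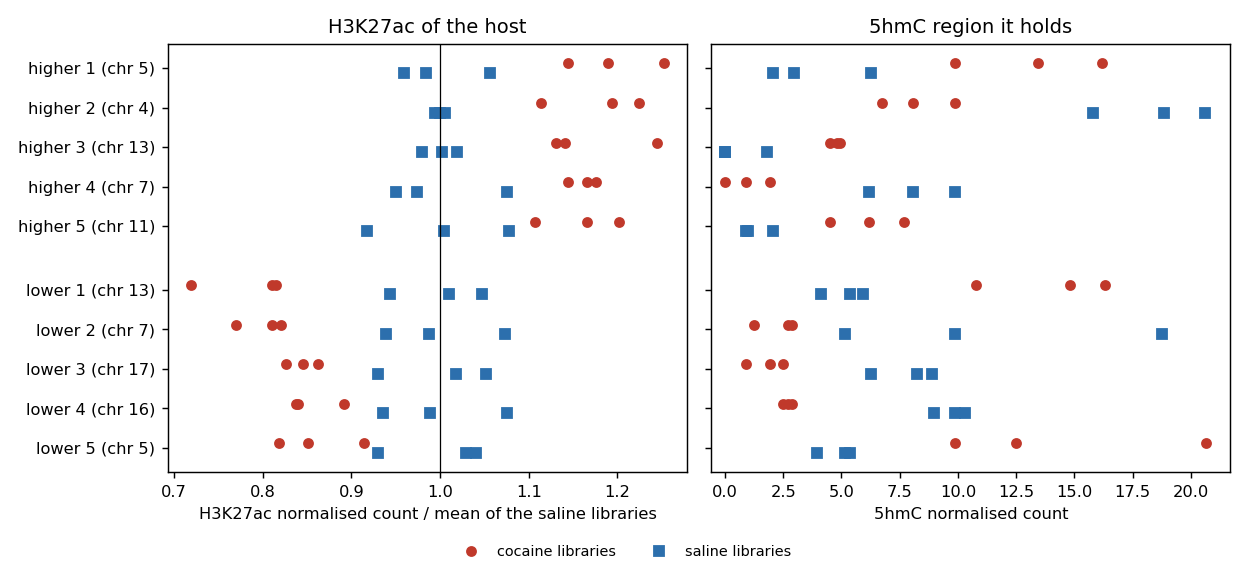
H3K27ac count of each library divided by the mean of the saline libraries (left x axis) and 5hmC normalised count (right x axis) at the 5 hosts with the largest called rise and the 5 with the largest called fall in H3K27ac (rows, in order of fold change). Circles are cocaine and squares are saline libraries; in rows 2 and 4 of the rises and rows 1 and 5 of the falls the marks lie in opposite directions.

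In hosts that fell in H3K27ac, 5hmC sat nearer to the edge than in hosts that rose. In the 37 pairs with a host that rose, 22 of 34 inside midpoints (64.7%, exact 95% interval 46.5% to 80.3%) were in the inner zone. In the 69 pairs with a host that fell, 16 of 53 were (30.2%, 18.3% to 44.3%), and 25 of the 53 were in the outermost of the 4 zones. In the 1029 pairs with a host that was not called the share was 47.5%. The 5hmC region was fully inside in 81.1% of the pairs with a host that rose, 75.3% of those not called and 56.5% of those that fell. These sets also differed in length, with medians of 1200, 1400 and 1900 bp, and in level, with 259.7, 377.5 and 457.6 counts per kb. The part of length and level in the difference was not tested, and no test of the difference was run, since pairs are not replicates.

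**Figure D5:**
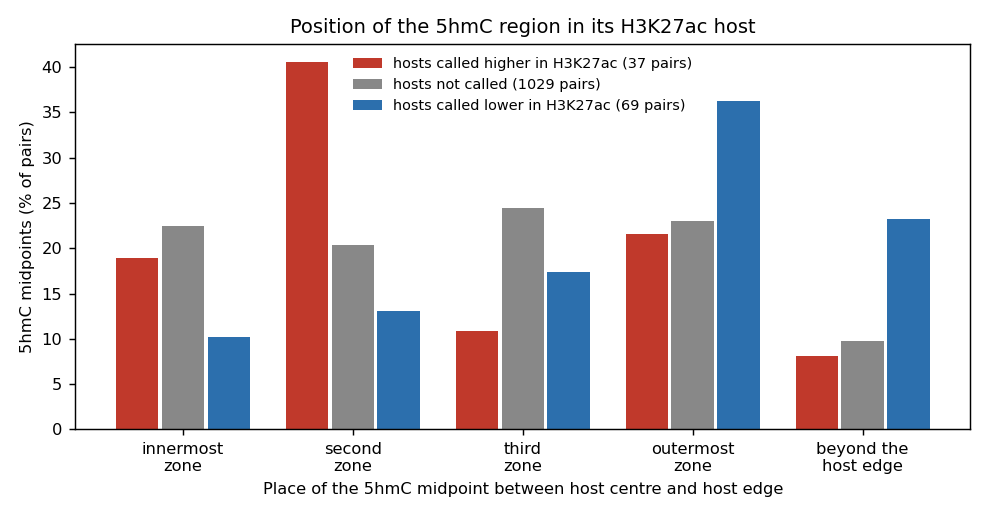
Percent of pairs (y axis) with the 5hmC midpoint in each of 4 zones of equal width from host centre to host edge, or beyond the edge (x axis), for hosts called higher, not called and called lower in H3K27ac. Of the pairs with a host called lower, 25 of 69 are in the outermost zone and 16 are beyond the edge.

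The same order held where hosts that overlap another H3K27ac region were left out, with 62.5% in hosts that rose and 32.6% in hosts that fell. It also held without each H3K27ac library in turn, with 51.9% to 78.6% in hosts that rose and 13.0% to 33.3% in those that fell; the lowest share came without cocaine replicate 2, from 3 of 23 midpoints. With cyclic loess the shares were 55.3% and 34.0%. Using the authors' deposited adjusted p below 0.05 in place of limma, 724 hosts were called, beside 65.9% of all regions, and the shares came to 49.0% and 43.6%.

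The sign of the H3K27ac difference was also set against H3K27ac level, with no test of hosts against other regions. In the highest decile of H3K27ac per kb, the log2 fold change was above 0 in 35.5% of 110 hosts and 21.6% of the other regions, and 9.09% against 19.1% were called. With cyclic loess the shares above 0 were 60.9% of hosts and 38.2% of the others. Most hosts of this decile thus lay above 0 with cyclic loess, but not in the main fit. With cyclic loess 18.2% against 15.3% were called, the opposite order. Leaving out 1 library gave 31.8% to 40.9% of hosts and 17.6% to 29.6% of the others above 0. Without saline replicate 3 the called shares were 7.27% and 7.37%. In the next decile it was above 0 in 48.5% of 103 hosts and 34.4% of the others. Hosts had the smaller share above 0 in 3 of the 10 deciles, with 59.5% of 84 hosts and 63.0% of the others in the lowest, 52.8% and 54.9% in the third and 50% and 54.5% in the fourth. Over all levels, 51.1% of hosts and 47.5% of other regions were above 0.

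A host with a pair of 5hmC regions was rare. Of the 1125 hosts, 1115 held 1 listed 5hmC region and 10 held 2, and these pairs had the same direction in 7 hosts and opposite directions in 3. The 3 are named here after their values were seen. In chr6:108617201-108619100 the 5hmC region chr6:108618161-108618400 had 8.65, 11.1 and 7.19 counts after cocaine and 0.90, 2.06 and 0.99 after saline, while its neighbour chr6:108618481-108618720 had 7.69, 4.94 and 1.80 against 13.5, 11.3 and 15.8. In chr13:108431901-108433200 the region chr13:108432221-108432580 had 17.3, 18.5 and 18.0 counts after cocaine and 5.38, 4.12 and 7.90 after saline, while chr13:108432641-108432840 had 4.80, 3.70 and 3.59 against 9.86, 13.4 and 11.8. In chr6:30518001-30519200 the region chr6:30518741-30519060 had 21.1, 22.2 and 17.1 against 7.17, 8.24 and 4.93, while chr6:30518361-30518560 had 1.92, 0 and 0 against 6.28, 5.15 and 4.93. In each of these hosts the neighbouring 5hmC regions had opposite signs, and H3K27ac was not called.

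The authors' deposited lists of 5hmC enhancers rarely touched these regions. Of the 1050 regions, 3 (0.286%, exact 95% interval 0.0590% to 0.833%) overlapped the list specific to cocaine, against 1.65% (1.42% to 1.91%) of listed 5hmC regions outside H3K27ac. The list specific to saline overlapped 1 region (0.0952%, 0.00241% to 0.530%), against 1.22% (1.02% to 1.45%) outside. These intervals cover counting error only, regions are not replicates, and no test was made. Of the list intervals themselves, 1.85% of 10434 and 1.10% of 10432 overlapped a listed H3K27ac region. The 4 regions, named after their values were seen, were chr5:107596101-107596300, chr16:17816921-17817160 and chr17:9014821-9015020 on the cocaine list and chr5:113733921-113734120 on the saline list. The last had 12.5, 9.88 and 10.8 counts after cocaine and 3.59, 6.18 and 1.97 after saline, higher in every cocaine library although it is on the saline list.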

How the data were processed

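The submitters' processing notes name mm9 and Bowtie 0.12.9. Per the file headers, the H3K27ac table came from diffReps 1.54 with a negative binomial test on 1000 bp windows moved by 100 bp, a window p-value of at most 0.0001 and input libraries as background. For the 5hmC table, caller and background are not given in the sources used here. Per region, the deposited tables give normalised counts of each library, the group mean signal, its ratio to background, the log2 fold change and the p-value. The deposited enhancer lists hold intervals only, and their positions were read as mm9.

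The members and lists were chosen with earlier results of these data known. Replicate numbers of H3K27ac follow the file headers; those of 5hmC are positions in the table, whose treatment and control columns were read as cocaine and saline. Overlap was at least 1 bp. H3K27ac was tested with limma 3.58.1 under R 4.3.3, taking log2(value + 1), a trended prior variance, robust moderation and Benjamini-Hochberg adjustment over 49712 regions, called below 0.05; for most regions the variance comes from the trend. The H3K27ac regions were themselves listed for a difference in these libraries. The added 1 shrinks log2 fold changes most in low regions. With 0.5 or 5 in its place, 37 hosts rose and 69 fell, the same counts. Regions were named by rank (adjusted p, fold, level, length, position), and others as said in the text. No per-library column was left unused (0). Shares and figures used scipy 1.17.1, matplotlib 3.10.9, pandas 2.3.3 and numpy 2.4.6 in Python 3.11.15. Intervals for shares are exact at 95%. Gene context, DNA sequence and the unassigned library were not analysed here.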

Additional observations from a re-analysis of the deposited data

How the results depend on the processing

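Low 5hmC depth limits these results, and 570 of the 1050 regions had a higher group mean of at least 10 counts. Only 1 of the 1050 kept a deposited adjusted p below 0.1, and the highest among them was 0.149. Whether depth set these adjusted p was not tested. With the midpoint inside the host or exactly on its edge, or with at least 50% covered, 951 regions remained. The share of midpoints in the inner zone was 42.8% in hosts of 2000 bp or more, 42.2% with midpoints outside the host counted, and 47.3% with merged blocks. The share with merged blocks was 48.3% when midpoints exactly on a block edge were left out. The ratio of host to other H3K27ac level, 1.01 over all lengths, was 1.003, 0.936 and 0.949 in the first, the third and the fourth quartile of length. Hosts called in H3K27ac numbered 45 to 106 when 1 library was left out, 177 with cyclic loess, 0 with each region's own variance, 51 at an adjusted p below 0.01 and 724 by the authors' deposited adjusted p. The ratio of the percent called in hosts to that in other regions was 0.721, but 0.959 without saline replicate 3, 1.05 with cyclic loess and 0.977 by the deposited adjusted p. The median H3K27ac log2 fold change ran from 0.000314 to 0.00749 at hosts of higher 5hmC and from 0.00429 to 0.0123 at hosts of lower 5hmC with 1 library left out. Among hosts that were not called, the sign of the log2 fold change turned at chr2:156405201-156406200 (from -0.0697 to 6.83e-05), chr11:97396701-97398300 (from -0.0133 to 0.0612) and chr2:178365301-178366300 (from -0.00568 to 0.0617) with 1 library left out. The cause was not tested. The share of 5hmC higher by host length kept its order from shortest to longest in all sets but merged blocks, where the third quartile (58.8%) was above the second (58.4%). Merged blocks, the shares by H3K27ac call and the shares by host length were added after the data were seen. edgeR and DESeq2 were not run, because the tables hold normalised values. No paired analysis was possible because the replicate numbers used here are positions in the tables and no label ties a cocaine library to a saline one.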
